A study of Homo sapiens with 72 samples.

Results

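Interleukin-1 family cytokines are alarm signals that cells of connective tissue and epithelium release on injury. IL-1α (IL1A) and IL-1β (IL1B) bind the type 1 receptor IL1R1, IL-33 (IL33) binds the ST2 receptor encoded by IL1RL1, and both receptors pair with the accessory protein IL1RAP before MYD88 and IRAK kinases carry the signal to NF-κB and MAP kinases. IL1RN encodes the receptor antagonist, which occupies IL1R1 without signalling. In fibroblasts the pathway is known for inducing IL6, neutrophil chemokines, prostaglandin synthesis and matrix metalloproteinases.

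The 7 genes IL1A, IL1B, IL33, IL1RN, IL1R1, IL1RL1 and IL1RAP (7 of 30142 gene names on the array) were followed through 12 probes, which are every probe other than a control spot that carries one of these names, out of 41000 probes. RNA came from IMR-90, normal human lung fibroblasts used at early passage. Irradiated cells lay on the thin Mylar floor of a dish and received 0.5 Gy of α-particles. Their bystanders belonged to the same continuous cell layer but lay on thicker Mylar strips that stopped the particles, and control dishes were handled alike without exposure. Cells were collected early (0.5, 1 and 2 hours) and late (4, 6 and 24 hours) in 4 experiments, which gives 4 arrays in each of the 18 groups and 72 arrays in all, 1 dye to an array. Within an experiment the 3 dishes came from 1 pool of cells, and all groups share the cell line and culture conditions. In such bulk RNA fewer cells with a transcript and less transcript per cell cannot be told apart.

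Values are log2 intensities after each array was scaled to the same 75th percentile, so a difference of 1 is a doubling. Between 65.7% and 76.9% of spots on an array were well above background, and none of the 12 probes was saturated. Ratios are given as the mean log2 ratio to the control of the same experiment ± SD over 4 pairs. The test was limma, fitted at each time to 12 arrays with the experiment as a block, and calls were made below an adjusted p of 0.10. The Benjamini-Hochberg adjustment ran over the 25246 probes that were well above background and uniform on enough arrays, and 7 of the 12 probes of the family were among them. Irradiated and bystander cells were compared with the same control arrays, so their agreement is not independent. The number of arrays limits the precision of every value.

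Some libraries stood apart. Over all probes, arrays of experiments 1 and 2 in the same group were closer to each other (median absolute log2 difference between 0.12 and 0.40, median 0.22 over 18 groups) than other pairs of experiments (0.20 to 0.58, median 0.38 over 90 pairs), and what these 2 experiments shared is not given in the sources used here. The tests treat the 4 experiments as independent. Treated arrays lay farther from their control in experiment 4 at 1 to 24 hours (0.42 to 0.55) and in experiment 3 at 0.5 hours (0.50 to 0.54) than in the other 18 sets (0.16 to 0.39). At 0.5 hours the arrays of experiment 3 shared a slide and those of experiment 4 did not, while at every later time it was the other way round, and the experiment numbers were taken as labelled throughout. The 3 arrays of experiment 3 at 24 hours stood apart in another way, in which the ligands themselves took part, and these are described last among the results.

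Fibroblast markers were high on every array. All 10 fibroblast markers examined, led by the collagen gene COL1A2, were well above background on all 72 arrays. So were 4 of 8 leukocyte markers, among them the lysosomal glycoprotein gene CD68, 2 of 4 endothelial markers, among them the receptor gene TEK, and 3 of 5 epithelial markers, which were keratin genes. The leukocyte gene LYZ and the epithelial gene CDH1 were well above background on 0 arrays, the pan-leukocyte gene PTPRC on 1 and the endothelial gene PECAM1 on 2. Of the 4 leukocyte markers detected on every array 3 passed the filter, which ITGAM missed for non-uniform spots on 8 arrays, and CD68 rose at 0.5 hours by 0.57 ± 0.07 after irradiation and 0.56 ± 0.16 in bystander cells, and again at 6 hours after irradiation by 0.55 ± 0.22, which is 1 of 3 where 6.66%, 4.39% and 5.55% of all probes rose. The other passing ones, CD14 and CD3E, were called at no time and stood at -0.04 and -0.26 at 0.5 hours after irradiation and at 0.04 and -0.02 in bystander cells. CSF1R, a macrophage receptor gene outside the filter that 56 arrays detected, averaged 4.38 in controls, 5.62 in irradiated and 5.51 in bystander cells. The epithelial keratin gene KRT8 rose at 2 hours after irradiation by 0.41 ± 0.17, which is 1 of 3 where 3.52% of all probes rose. No endothelial marker was called. The summed level of the leukocyte list ran from 9.45 to 9.94 (log2, group means) in controls, from 9.78 to 10.19 in irradiated cells and from 9.85 to 10.23 in bystander cells. Of the fibroblast list, THY1 fell at 0.5 hours by 1.05 ± 0.73 after irradiation and 1.09 ± 0.57 in bystander cells, PDGFRB fell by 0.73 ± 0.67 in bystander cells at that time and after irradiation by 0.59 ± 0.47 at 2 hours and 0.92 ± 0.48 at 6 hours, and the rest were not called. After irradiation this is 1 of 10 at 0.5, 2 and 6 hours, where 3.72%, 2.64% and 5.13% of all probes fell. In bystander cells it is 2 of 10 at 0.5 hours, where 2.65% of all probes fell. The summed fibroblast list ran from 19.75 to 20.02 in controls, from 19.42 to 19.68 in irradiated cells and from 19.40 to 19.76 in bystander cells. The part of these shifts in the ligand results was not tested.

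The 3 ligands that passed the filter moved together, so the genomic sequence just before their starts is shown first, as RefSeq gives it for GRCh38.p14. IL1A (chr2:112773925-112784493) and IL1B (chr2:112829751-112836779) are neighbours read from the minus strand, and IL33 (chr9:6215149-6257983) is read from the plus strand. Each window holds the 150 bases before a transcript start, 5′ to 3′ on the gene's own strand, and capitals mark a match to TGANTCA, the motif bound by AP-1. IL1A has 2 such windows, of which the first is shown.
IL1A, chr2:112784494-112784643, minus strand: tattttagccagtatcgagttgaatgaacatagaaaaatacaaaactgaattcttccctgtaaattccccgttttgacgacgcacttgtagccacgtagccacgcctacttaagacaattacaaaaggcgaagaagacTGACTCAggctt
IL1B, chr2:112836780-112836929, minus strand: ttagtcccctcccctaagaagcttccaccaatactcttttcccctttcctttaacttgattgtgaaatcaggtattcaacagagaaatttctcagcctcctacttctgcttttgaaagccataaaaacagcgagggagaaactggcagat
IL33, first start, chr9:6214999-6215148, plus strand: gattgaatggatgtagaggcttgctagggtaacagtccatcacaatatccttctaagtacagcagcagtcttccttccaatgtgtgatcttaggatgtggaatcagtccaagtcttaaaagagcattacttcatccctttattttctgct
IL33, second start, chr9:6215657-6215806, plus strand: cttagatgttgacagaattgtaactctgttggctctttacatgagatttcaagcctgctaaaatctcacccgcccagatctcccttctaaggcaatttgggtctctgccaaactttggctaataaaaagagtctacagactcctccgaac

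The letters TGANTCA, searched on both strands, stand in 4.18% of the 34943 RefSeq windows of this length, and among the windows of the 7 genes they stand in those of IL1A. The window shown holds 1 match, and the second IL1A window, chr2:112784401-112784550, which overlaps it, holds 2. The κB motif was found in 6.19% of windows and TGACGTCA, the cyclic AMP response element, in 1.39%, and neither in a window of the 7 genes. A match is a string of letters and not a shown binding site, and a missing match says only that these letters are absent from this window.

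The probes that read the ligands are 60 bases long, and their first 30 bases are given to show what each measurement rests on.
IL1A, probe A_23_P72096: ttattattcttcataacaattttaggagga
IL1B, probe A_23_P79518: ggaatcaattcaatttggactggtgtgctc
IL33, probe A_23_P31945: aacttcatttctgtatcacctgacctctgg
The IL1A and IL1B probes were each printed in 10 spots on every array and their spots were averaged, whereas the other 10 probes of the family had 1 spot. IL1B was well above background on 72 of 72 arrays, IL33 on 70 and IL1A on 69, and every array below that mark was a control. For IL1A these were the controls of experiment 4 at 1, 2 and 24 hours. For IL33 they were the controls of experiment 3 at 0.5 hours and of experiment 4 at 24 hours. Ratios to these controls rest on a dim value.

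IL1A, IL1B and IL33 transcripts rose in both irradiated and bystander cells at 0.5 and 4 hours, and again at 6 hours except for IL1B in bystander cells, which did not pass the test there. The rises ran from 2.43-fold to 9.79-fold, and the tallest was that of IL33 at 6 hours. At 1, 2 and 24 hours none of the 3 was called in either treatment. The 3 probes belong to a list that the study drew up from the 4-hour arrays of these samples, and calls there cannot count as independent evidence. Set against the whole array, at 0.5 hours 3 of the 7 probes of the family rose after irradiation where 6.66% of all probes did, and 3 rose in bystander cells where 4.39% did. At 4 hours 3 of 7 rose in each treatment, against 0.947% of all probes after irradiation and 0.531% in bystander cells. At 6 hours 3 of 7 rose after irradiation against 5.55%, and 2 of 7 rose in bystander cells against 0.214%.

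**Figure D1:**
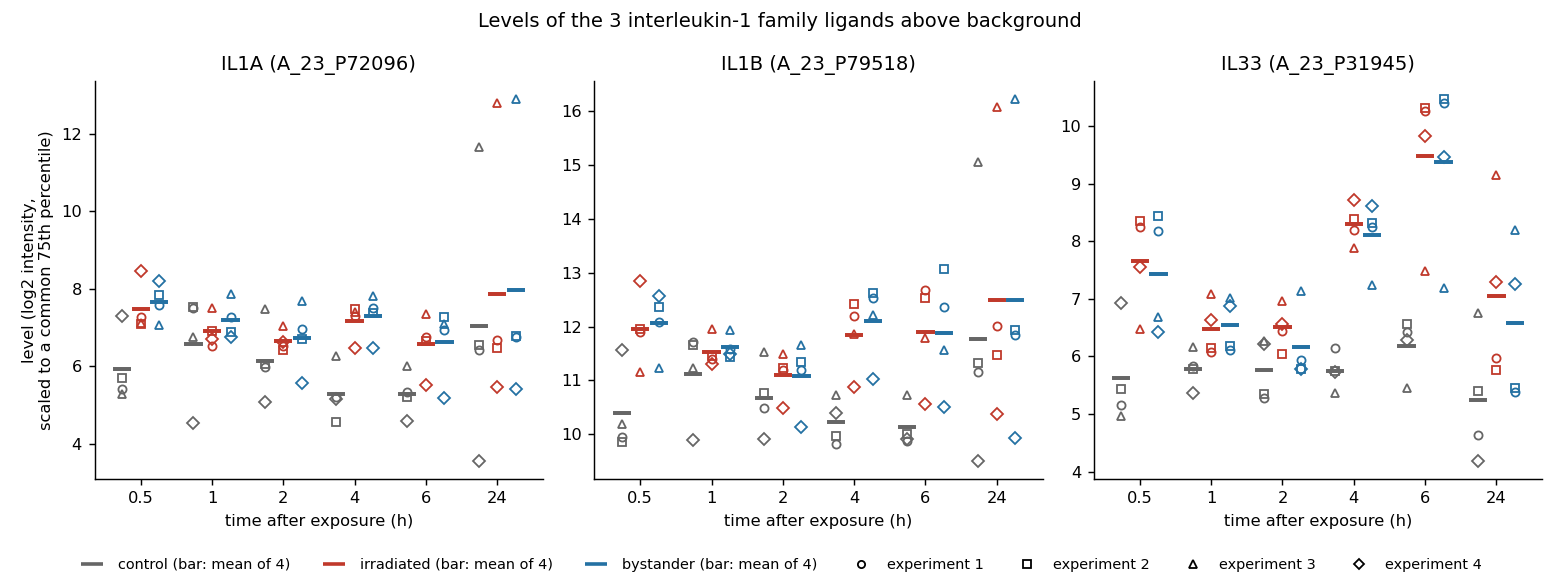
Level of each ligand (log2 intensity, arrays scaled to a common 75th percentile) on every array by time after exposure. Grey, red and blue are control, irradiated and bystander cells, symbols mark the 4 experiments, and bars are group means. At 4 hours the treated arrays of each ligand lie above the highest control, and at 24 hours experiment 3 lies far above the other experiments for IL1A and IL1B in every treatment, control included.

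IL1A, whose precursor is active without cleavage, is the alarmin of dying and stressed cells. At 4 hours its level in experiments 1 to 4 was 5.20, 4.56, 6.27 and 5.17 in controls, 7.30, 7.48, 7.39 and 6.48 in irradiated cells and 7.50, 7.38, 7.81 and 6.47 in bystander cells. Every treated array lay above every control. The ratio was 1.86 ± 0.83 after irradiation (3.63-fold, limma adjusted p = 0.0200) and 1.99 ± 0.70 in bystander cells (3.97-fold, adjusted p = 0.0171). At that time the groups of all 3 ligands did not overlap in either treatment, which was so, in the same direction, for 1.9% of all probes after irradiation and 2.6% in bystander cells.

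At 0.5 hours IL1A stood at 5.41, 5.70, 5.29 and 7.31 in controls, 7.26, 7.10, 7.11 and 8.47 in irradiated cells and 7.57, 7.83, 7.07 and 8.21 in bystander cells. Experiment 4 was the highest in each group, so the groups overlapped although each treated array exceeded its own control. The ratio was 1.55 ± 0.33 (2.94-fold, limma adjusted p = 0.0212) and 1.74 ± 0.58 (3.34-fold, adjusted p = 0.0132). At 6 hours the irradiated ratios were nearly uniform, at 1.44, 1.43, 1.34 and 0.93, with a mean of 1.28 ± 0.24 (2.43-fold, adjusted p = 0.0300), and the bystander ratio was 1.33 ± 0.64 (2.51-fold, adjusted p = 0.0834). The bystander rise of IL1A at 6 hours was the most fragile of these calls, since it was called in 2 of 12 alternative settings, and the range of its adjusted p over them was 0.0342 to 0.744.

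IL1B, the form that caspase-1 matures for secretion, was called at the same times as IL1A except in bystander cells at 6 hours. At 4 hours it stood at 9.81, 9.96, 10.73 and 10.40 in controls, 12.19, 12.43, 11.87 and 10.88 in irradiated cells and 12.53, 12.62, 12.21 and 11.03 in bystander cells. The groups did not overlap, but experiment 4 moved least, by 0.49 after irradiation against 2.37, 2.47 and 1.14 in the other 3. The mean ratio was 1.62 ± 0.97 (3.07-fold, limma adjusted p = 0.0523) and 1.87 ± 1.00 in bystander cells (3.66-fold, adjusted p = 0.0391).

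At 0.5 hours IL1B stood at 9.94, 9.86, 10.19 and 11.57 in controls, 11.90, 11.95, 11.16 and 12.84 in irradiated cells and 12.09, 12.37, 11.24 and 12.57 in bystander cells. The control of experiment 4 was higher than both treated arrays of experiment 3, while each treated array exceeded its own control. The ratio was 1.57 ± 0.54 (2.98-fold, limma adjusted p = 0.0232) and 1.68 ± 0.77 (3.20-fold, adjusted p = 0.0149). At 6 hours it rose by 1.76 ± 1.08 after irradiation (3.40-fold, adjusted p = 0.0392), with 2.82 and 2.53 in experiments 1 and 2 against 1.06 and 0.64 in experiments 3 and 4. The bystander ratio at 6 hours was as large, 1.75 ± 1.22, and did not pass the test (adjusted p = 0.139).

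IL33, a nuclear cytokine of stromal and barrier cells that is released on damage, gave the largest ratios of the family. At 4 hours its level was 6.14, 5.75, 5.36 and 5.73 in controls, 8.20, 8.39, 7.89 and 8.71 in irradiated cells and 8.25, 8.31, 7.24 and 8.62 in bystander cells. All 8 treated arrays lay above all 4 controls, and the ratios differed little between experiments. They averaged 2.55 ± 0.38 after irradiation (5.87-fold, limma adjusted p = 0.00162) and 2.36 ± 0.45 in bystander cells (5.15-fold, adjusted p = 0.00184). Both calls were made in 12 of 12 alternative settings.

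At 6 hours IL33 reached 10.27, 10.32, 7.49 and 9.83 in irradiated cells and 10.40, 10.47, 7.19 and 9.46 in bystander cells, from 6.42, 6.57, 5.46 and 6.28 in controls. Experiment 3 was the lowest in each group, and the groups still did not overlap, as was so for 4.5% of all probes after irradiation and 1.1% in bystander cells. The ratio was 3.29 ± 0.86 (9.79-fold, limma adjusted p = 0.00465) and 3.19 ± 1.04 (9.14-fold, adjusted p = 0.0102). At 0.5 hours the mean ratios were 2.03 ± 1.17 (4.10-fold, adjusted p = 0.0514) and 1.81 ± 1.65 (3.52-fold, adjusted p = 0.0742), and here the experiments parted. The irradiated ratios were 3.08, 2.91, 1.51 and 0.63, and the bystander ratios 3.02, 3.0, 1.73 and -0.49, so the bystander array of experiment 4 lay below its control. In experiment 3 IL33 was not well above background in the control (4.96), so the ratios of 1.51 and 1.73 rest on a dim value.

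**Figure D2:**
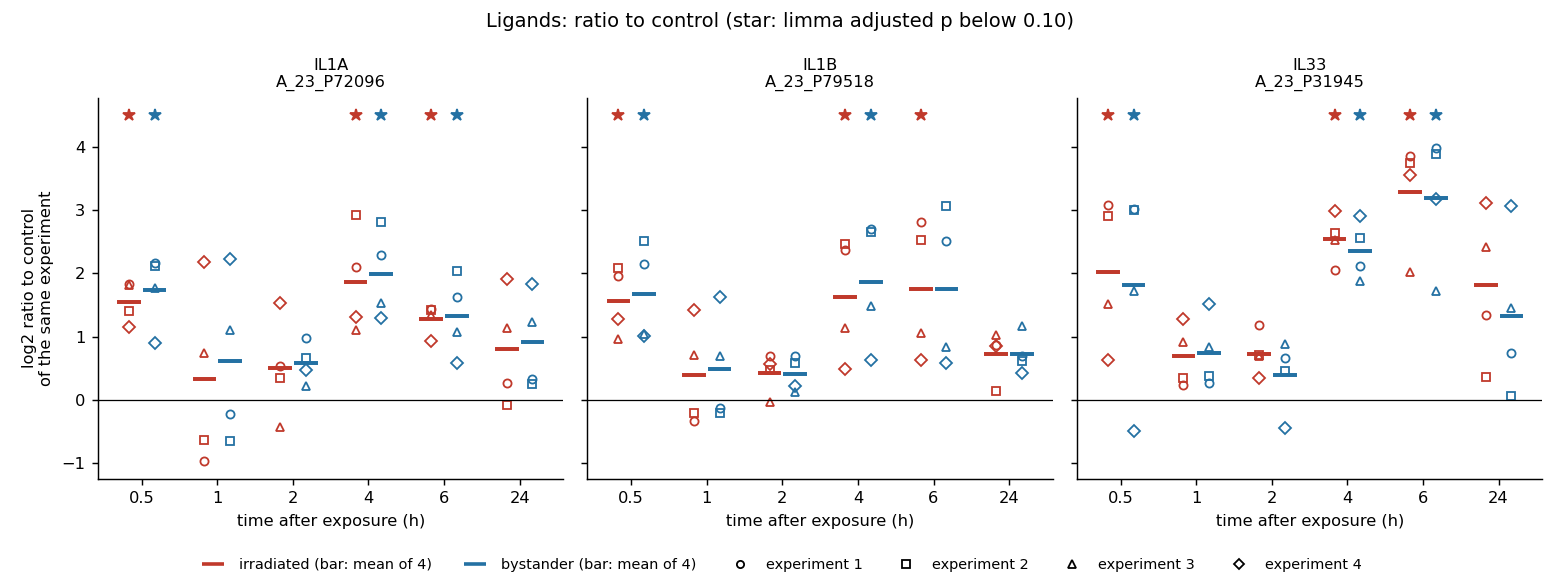
Log2 ratio of each ligand to the control of the same experiment at each time, red for irradiated and blue for bystander cells. Symbols are the 4 experiments, bars their mean, and stars mark a limma adjusted p below 0.10. Means stand high at 0.5 and at 4 to 6 hours, IL33 reaches 3.29 at 6 hours after irradiation, and at 1 hour experiments 1 and 2 lie below 0 for IL1A and IL1B while experiments 3 and 4 lie above.

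The calls at 0.5 hours depended on which experiments were kept, and most on experiment 2, for the whole array as for the ligands. Without experiment 2, 0 of the 7 probes were called in either treatment, as were 0% of all probes. Without experiment 1, 2 of the 7 were called after irradiation and 0 in bystander cells, where 2.31% and 0.0158% of all probes were called. The ligand ratios without experiment 2 were 1.61, 1.40 and 1.74 after irradiation for IL1A, IL1B and IL33 and 1.61, 1.40 and 1.42 in bystander cells. With every experiment kept they were 1.55, 1.57 and 2.03, and 1.74, 1.68 and 1.81, so the calls were lost with ratios that stayed well above 0. At 4 hours without experiment 1, IL33 alone was called in each treatment (0.0911% and 0.0555% of all probes), and without experiment 2 the same was true in bystander cells (0.0396%). At 6 hours without experiment 1, 1 probe was called after irradiation, with 2.36% of all probes. In bystander cells at that time leaving out experiment 1, 2 or 4 left 0 of the 7 and 0% of all probes. Without experiment 4, whose arrays stood apart from 1 hour on, 3 probes were called in each treatment at 4 hours (0.539% and 0.333% of all probes) and 3 after irradiation at 6 hours (0.824%). Without experiment 3, which stood apart at 0.5 hours, 3 were called after irradiation and 2 in bystander cells at that time, where 6.25% and 4.67% of all probes were.

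The arrays of a time point lay on 3 slides. All arrays of experiment 1 shared a slide at each time, as did those of experiment 4 from 1 hour on, so their ratios are within-slide values. For IL33 at 4 hours these were 2.06 and 2.99 after irradiation and 2.12 and 2.90 in bystander cells. For IL1A they were 2.10 and 1.31, and 2.29 and 1.30. For IL1B they were 2.37 and 0.49, and 2.71 and 0.63, so each was above 0 within a slide. With the slide as a further block, 2 of the 7 probes rose at 0.5 hours in each treatment, where 1.3% and 0.685% of all probes were called in either direction. At 4 hours 2 rose in irradiated and 1 in bystander cells (2.41% and 0.0753% of all probes called), and at 6 hours 3 and 0 (9.21% and 0%). The ligand calls lost were IL33 at 0.5 hours in both treatments, IL1B at 4 hours in both, IL1A at 4 hours in bystander cells, and IL1A and IL33 at 6 hours in bystander cells.

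At 1 hour the ratios of the ligands split by experiment. Those of IL1A after irradiation were -0.97, -0.63, 0.74 and 2.18, and those of IL1B were -0.33, -0.20, 0.71 and 1.42. The controls of experiments 1 and 2 were then at 7.50 and 7.54 for IL1A and the control of experiment 4 at 4.53, whereas the irradiated arrays lay within 6.53 to 7.50. In that control of experiment 4 IL1A was not well above background. The ratio of 2.18 and the spread of the IL1A controls rest on that dim value. For IL1A and IL1B the controls spread more widely (SD 1.42 and 0.85) than the irradiated arrays (0.42 and 0.29), and for IL33 less (0.33 against 0.47). IL33 did not split in sign, with ratios of 0.23, 0.35, 0.92 and 1.28. Of all probes 0% were called at 1 hour in either treatment by limma. At an unadjusted p below 0.05 were 6669 (26.4%) after irradiation and 3637 (14.4%) in bystander cells, among them 2 and 1 of the 7 probes. These were IL33 in both treatments and, after irradiation, the IL1R1 probe A_24_P200023 with a ratio of -0.61 ± 0.45.

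At 2 hours the mean ligand ratios were 0.50 for IL1A, 0.43 for IL1B and 0.73 for IL33 after irradiation, and 0.58, 0.41 and 0.39 in bystander cells. None was called, against 3.52% of probes called higher after irradiation and 0.23% called in either direction in bystander cells. At an unadjusted limma p below 0.05 stood 4 and 3 of the 7 probes, against 22.4% and 15.8% of all probes. After irradiation these were IL1B, IL33 and both IL1R1 probes, and in bystander cells IL1B and both IL1R1 probes. The IL1R1 ratios among them were below 0. Without experiment 4, 3 of the 7 were called at 2 hours in each treatment, where 19.4% and 12% of all probes were. At 24 hours the ligand ratios were 0.81 ± 0.89, 0.72 ± 0.39 and 1.81 ± 1.20 after irradiation and 0.92 ± 0.76, 0.72 ± 0.32 and 1.33 ± 1.29 in bystander cells. None was called at 24 hours, where 0.166% and 0.0198% of all probes were, and 3 of the 7 had an unadjusted p below 0.05 in each treatment, against 13.3% and 11.1% of all probes.

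The dip between the early and the late rise was tested as such, as a difference of ratios between 2 times in 1 fit over the 72 arrays. For IL33 the ratio at 4 hours exceeded that at 2 hours by 1.82 (SE 0.54) after irradiation and 1.98 (SE 0.54) in bystander cells. For IL1A these differences were 1.36 and 1.40 (SE 0.49 each), and for IL1B 1.19 and 1.46 (SE 0.44 each). The ratio at 0.5 hours exceeded that at 2 hours by 1.05 to 1.30 for the 3 ligands after irradiation and by 1.15 to 1.43 in bystander cells. In each of these comparisons the 3 ligands had an unadjusted p below 0.05, of which the lowest was 0.000648, and 0 of the 7 probes passed after adjustment over the array (lowest adjusted p 0.833), as 0% of all probes did. From 4 to 24 hours the ratio differed by -1.05 and -1.07 for IL1A, -0.89 and -1.15 for IL1B and -0.75 and -1.03 for IL33, again without passing, and for IL33 the unadjusted p was 0.17 and 0.0604. Of all probes 0.00396% passed.

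Irradiated and bystander cells were also compared directly, on the same pairs of dishes. By limma 0 of the 7 probes were called at any of the 6 times, and 0 had an unadjusted p below 0.05. On the whole array 0% of probes were called at 5 of the times and 0.0436% at 2 hours. The differences, irradiated minus bystander, lay between -0.29 and -0.05 for IL1A, between -0.25 and 0.02 for IL1B and between -0.06 and 0.47 for IL33. For IL1B at 4 hours they were of 1 sign in every experiment, at -0.34, -0.19, -0.33 and -0.14. For IL33 at 24 hours they were too, at 0.59, 0.30, 0.95 and 0.05. The 95% intervals of the mean differences reached from -1.27 to 0.70 for IL1A, from -0.95 to 0.84 for IL1B and from -0.84 to 1.45 for IL33, so differences inside these limits may have gone undetected.

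The antagonist was near the detection limit. Of the IL1RN probes, A_23_P209995 was well above background on 0 of 72 arrays and A_32_P38125 on 13, namely 5 control, 3 irradiated and 5 bystander arrays. Neither was called in any comparison, with a lowest limma adjusted p of 0.44 in the fit that kept dim probes, and 0 tests had an unadjusted p below 0.05. Over the 18 comparisons that fit called 0.368% of all probe tests. In bystander cells at 6 hours, the 2 arrays that detected A_32_P38125 stood at 6.55 and 6.12, and neither the other 2 nor any of the 4 controls was well above background, so no ratio is given. No balance between IL1RN and the 2 agonists can be drawn, since spot intensities of different probes are not on 1 scale.

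IL1R1 (chr2:102070390-102179874), the signalling receptor for both IL-1 forms, was well above background on every array with both of its probes. These read different stretches, whose first 30 bases are given because the probes did not give the same calls, and their longest shared run was 8 bases.
IL1R1, probe A_23_P68006: ggggaagggtctacctctgactgtgatatt
IL1R1, probe A_24_P200023: ataattttcctcctaaacaaaaacacattg
With A_23_P68006, IL1R1 fell after irradiation at 2 and 6 hours, the sole calls among the receptor probes of the 7 genes. At 6 hours it stood at 10.32, 10.35, 10.39 and 10.12 in controls and 9.87, 9.75, 10.18 and 9.04 in irradiated cells. Each irradiated array was below its own control, and the groups overlapped. It fell by 0.58 ± 0.36 on the log2 scale (limma adjusted p = 0.0791), which is 1 of 7 probes where 5.13% of all probes fell.

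At 2 hours A_23_P68006 fell by 0.38 ± 0.17 (limma adjusted p = 0.0878), again lower in 4 of 4 experiments, where 2.64% of all probes fell. In bystander cells its ratio was -0.29 ± 0.22 at 2 hours and -0.44 ± 0.25 at 6 hours, lower in 4 of 4 experiments each time, and it passed at neither. The second probe was lower in 4 of 4 experiments after irradiation at 1, 2 and 4 hours, with ratios of -0.61 ± 0.45, -0.51 ± 0.52 and -0.38 ± 0.26. In bystander cells this was so at 4 hours alone (-0.24 ± 0.19). At 6 hours its ratios were -1.03 ± 1.19 after irradiation and -0.93 ± 1.25 in bystander cells. Its experiments then ranged from -2.27 to 0.35 after irradiation and from -2.65 to 0.34 in bystander cells. The second probe was called in no comparison. Both falls of A_23_P68006 were lost when the dim probes were kept, without the block, with the slide as a further block, and without experiment 1 or 2. The fall at 2 hours was also lost with normexp background, in 1 fit over all arrays and without experiment 3, and the fall at 6 hours without experiment 4, so that they were called in 4 and 6 of 12 alternative settings.

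**Figure D3:**
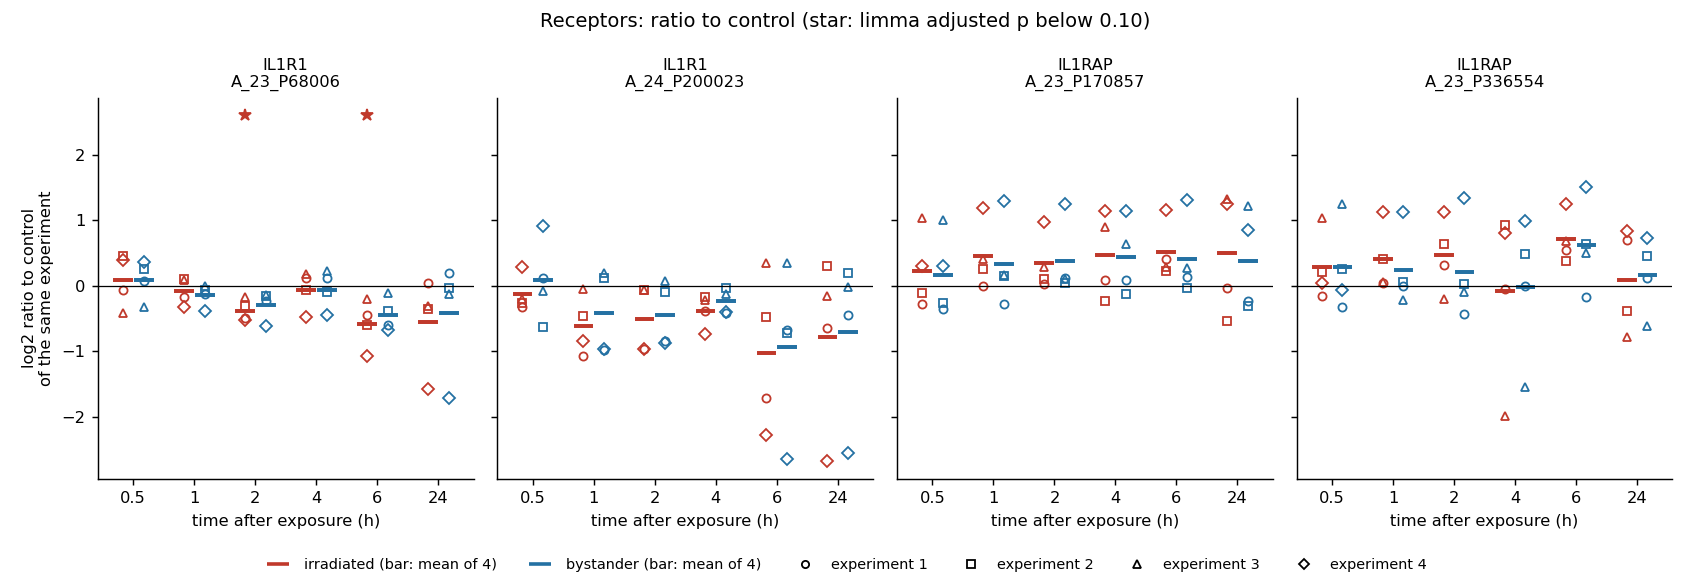
Log2 ratio to the control of the same experiment for the 2 IL1R1 and the 2 IL1RAP probes that passed the filter, by time, in irradiated (red) and bystander (blue) cells. Symbols are experiments, bars means of 4, and stars limma adjusted p below 0.10. The sole stars are those of A_23_P68006 at 2 and 6 hours after irradiation, and experiment 4 (diamonds) gives the lowest IL1R1 ratios at 6 and 24 hours.

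IL1RAP (chr3:190514085-190659750) is the shared co-receptor for IL-1 and IL-33. Its probes A_23_P170857 and A_23_P336554 were well above background on every array. The second lies on another RefSeq transcript of the gene, which encodes a soluble form, and the first bases of both show that they read different sequence.
IL1RAP, probe A_23_P170857: aattaatggttttaaatatatgctataggg
IL1RAP, probe A_23_P336554: aaagattgcatcatctgacctaagactttc
Neither was called at any time. A_23_P170857 had mean ratios of 0.17 to 0.51 over the 12 comparisons, with experiment 4 at 0.97 to 1.30 in all those from 1 to 6 hours. A_23_P336554 ranged from -0.08 to 0.71, and at 4 hours after irradiation its experiments ran from -1.99 in experiment 3 to 0.92 in experiment 2. The remaining IL1RAP probes, A_24_P148762 and A_24_P180165, were well above background on 59 and 50 of 72 arrays and were called in no comparison.

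IL1RL1 (chr2:102311563-102352356), which encodes the IL-33 receptor, was at background. Its probe was well above background on 4 of 72 arrays, 0 of them controls, 1 irradiated and 3 bystander. So the ligand with the tallest rise was measured beside a receptor probe that most arrays did not detect. This bounds the transcript read by 1 probe and says nothing of protein. Whether that probe reads the membrane-bound form, the soluble form or both was not tested.

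Among other receptors of the family 6 of 8 genes passed the filter, and IL18R1, a chain of the interleukin-18 receptor, rose at 0.5 hours by 0.63 ± 0.10 after irradiation (limma adjusted p = 0.0306) and 0.86 ± 0.22 in bystander cells (adjusted p = 0.0149), which is 1 of 6 where 6.66% and 4.39% of all probes rose. Its 5 companions were not called at that time or any other. Of the other ligands 1 of the 7 on the array passed the filter, IL1F7, the older name of the anti-inflammatory IL37, and it was not called.

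Downstream of the receptors, 20 genes known to respond to interleukin-1 in many cells passed the filter out of 23 on the array. These were written from general knowledge with earlier results of these data known, and several belong to the study's list chosen at 4 hours on these samples. After irradiation 18, 0, 8, 16, 14 and 1 of the 20 rose from the first time to the last, with medians of 1.46, 0.66, 0.55, 1.40, 1.52 and 0.84 against medians near 0 over all probes. Of all probes 6.66%, 0%, 3.52%, 0.947%, 5.55% and 0.107% rose at these times. In bystander cells 18, 0, 2, 15, 6 and 0 rose, with medians of 1.42, 0.60, 0.61, 1.56, 1.14 and 0.69, where 4.39%, 0%, 0.198%, 0.531%, 0.214% and 0.0158% of all probes rose. None of the 20 fell at any time.

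The targets that moved most at 0.5 hours after irradiation were the neutrophil chemokine IL8 (3.56 ± 1.59), the stromelysin MMP3 (2.95 ± 0.71), the prostaglandin synthase PTGS2 (2.63 ± 0.59) and IL6 (2.55 ± 0.64), with limma adjusted p of 0.0248, 0.0234, 0.0059 and 0.0302. In bystander cells they were IL8 (3.60 ± 1.97), PTGS2 (2.73 ± 0.86), MMP3 (2.67 ± 1.62) and the chemokine CXCL2 (2.52 ± 0.82), with adjusted p of 0.0215, 0.00408, 0.0263 and 0.00478. The monocyte chemokine CCL2 and the adhesion molecule VCAM1 stood at -0.04 and -0.16 at 0.5 hours after irradiation and at 0.04 and -0.17 in bystander cells, and were called at no time. NFKBIA, the inhibitor of NF-κB, was at 0.74 and 0.76 at 0.5 hours and at -0.14 and -0.10 at 4 hours.

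**Figure D4:**
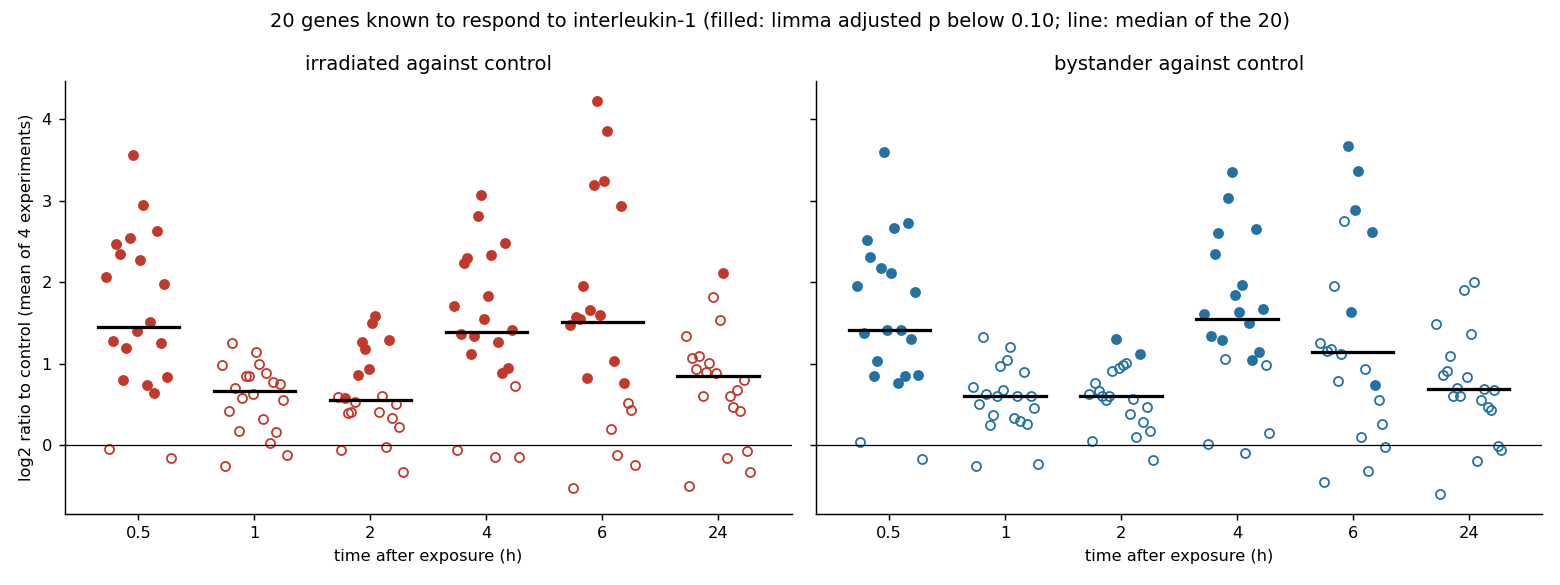
Mean log2 ratio to control over 4 experiments for each of 20 genes known to respond to interleukin-1, by time, after irradiation (left) and in bystander cells (right). Filled points passed at a limma adjusted p below 0.10 and lines are medians of the 20. The medians are 1.46 and 1.42 at 0.5 hours, then 0.55 and 0.61 at 2 hours, and 1.40 and 1.56 at 4 hours.

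The 16 genes that carry the signal from the receptor gave calls in both directions. After irradiation at 0.5 hours 4 rose and 2 fell, where 6.66% of all probes rose and 3.72% fell. In bystander cells 3 rose and 1 fell, where 4.39% of all probes rose and 2.65% fell. PELI2 (0.71 ± 0.20) and PELI1 (0.58 ± 0.22), ubiquitin ligases that act on IRAK kinases, rose, as did MAP3K7 (0.50 ± 0.19), the kinase TAK1, and its partner gene MAP3K7IP3 (0.53 ± 0.42). Another partner gene, MAP3K7IP1, fell by 0.72 ± 0.38 and the adaptor gene MYD88 by 0.51 ± 0.24. The partner gene MAP3K7IP2 was not called. In bystander cells PELI2 (0.69 ± 0.20), PELI1 (0.64 ± 0.23) and MAP3K7 (0.38 ± 0.18) rose and MYD88 fell by 0.53 ± 0.30 at that time.

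At 2 hours after irradiation 3 of the 16 fell, where 2.64% of all probes did, namely MYD88 by 0.49 ± 0.27, TOLLIP, whose product restrains IRAK1, by 0.45 ± 0.21 and IKBKB, a subunit of the kinase that releases NF-κB, by 0.37 ± 0.12. At 6 hours MYD88 fell by 0.65 ± 0.16, which is 1 of 16 where 5.13% of all probes fell. IRAK3, a kinase-dead brake on the pathway, rose by 0.93 ± 0.22 in bystander cells at 4 hours, the sole signalling call there, where 0.531% of all probes rose. Of 11 genes for processing and release of the cytokines, such as caspases and inflammasome parts, the calls were those of the calpain genes at 2 hours after irradiation. CAPN2 rose by 0.32 ± 0.07 and CAPN1, whose protease can cleave the IL-1α precursor, fell by 0.46 ± 0.40, which is 1 of 11 each way where 3.52% of all probes rose and 2.64% fell.

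Likeness of pattern was taken over 72 arrays from log2 values relative to the mean of the 3 arrays of the same experiment and time, among 12177 named genes. It is a description, since the arrays share controls, experiments and depth. IL1A was most like PTGS2 (Pearson r = 0.920), the pteridine enzyme gene GCH1 (0.901), NAMPT (0.900), CXCL3 (0.893) and KYNU (0.893). IL1B was most like CXCL3 (0.964), IL8 (0.954), PTGS2 (0.932), IL6 (0.925) and CXCL2 (0.910). The genes most like IL33 included the collagenase gene MMP1 (0.945), MMP3 (0.920), the laminin chain gene LAMB3 (0.916) and the cortisol-activating enzyme gene HSD11B1 (0.909).

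Among the members, IL1A and IL1B correlated at 0.912, IL1B and IL33 at 0.864 and IL1A and IL33 at 0.837. The 2 IL1R1 probes correlated at 0.760 with each other and at -0.633 to -0.266 with the ligands, and the 2 IL1RAP probes at 0.431. The IL1R1 probe A_23_P68006 was most like JAM2 (0.882), RCBTB2, CHST2, TNFSF10 and FGF10 (0.864). The other, A_24_P200023, was most like C1QL1 (0.928), JUP, CYBRD1, LRFN5 and GSTM2 (0.885). The genes most like the IL1RAP probe A_23_P170857 included RBBP8 (0.932), NRIP1, ZNF26 and LCOR (0.906), and A_23_P336554 was most like RNF182 (0.844), ALS2CR4, BNC1, CHAF1A and CBX3 (0.817).

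The libraries of experiment 3 at 24 hours carried high IL-1 transcripts in all 3 dishes, the unexposed control included. IL1A stood at 6.41, 6.54, 11.65 and 3.57 in the 4 controls, 6.69, 6.47, 12.79 and 5.48 in irradiated cells and 6.75, 6.79, 12.89 and 5.41 in bystander cells. IL1B stood at 11.15, 11.33, 15.07 and 9.51 in controls and reached 16.09 and 16.23 in the treated dishes of experiment 3. Against the mean of the other 3 experiments, the control of experiment 3 was higher by 6.14 for IL1A, 4.40 for IL1B and 2.01 for IL33, which for IL1A and IL1B is larger than any of their treatment ratios. The control of experiment 4 did not detect IL1A or IL33, and against the 2 controls that did the differences were 5.17 and 1.73. Over the array 27 of 25193 probes were more than 4 higher in that control, IL1A and IL1B among them.

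The interleukin-1 responsive genes went along. In the control of experiment 3 at 24 hours 19 of the 20 were more than 1 above the mean of the other controls, with a median of 3.27, and IL6 was 8.22 and CXCL2 6.15 higher. In irradiated and bystander dishes 20 of 20 were, with medians of 3.74 and 3.55. The share of all probes beyond that limit of 1 is not given. Over all probes the control of experiment 3 differed from those of experiments 1, 2 and 4 by a median absolute 0.34, 0.44 and 0.36. These distances were 0.52, 0.50 and 0.53 in irradiated dishes and 0.42, 0.46 and 0.55 in bystander dishes. The receptor probes were mixed. Those of IL1R1 differed from the other experiments by -0.20 and -0.23 in the control and by 0.12 to 0.68 in the treated dishes. The IL1RAP probe A_23_P170857 was 0.56 higher in the control and 1.66 and 1.68 higher in irradiated and bystander dishes, whereas A_23_P336554 stood at -0.80, -1.97 and -1.85. The interleukin-18 receptor genes were higher in all 3 dishes, IL18RAP by 2.16, 4.01 and 3.73 and IL18R1 by 1.47, 2.29 and 2.66, while the other 4 passing receptor genes of the family lay between -0.42 and -0.03 in the control. The ratios to control within experiment 3, in irradiated and bystander cells, were 1.14 and 1.24 for IL1A, 1.02 and 1.17 for IL1B and 2.41 and 1.45 for IL33. Without experiment 3 the 24-hour ratios after irradiation were 0.70 for IL1A, 0.63 for IL1B and 1.61 for IL33, and none was called with or without it. What this experiment shared at 24 hours beyond its number was not tested.

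**Figure D5:**
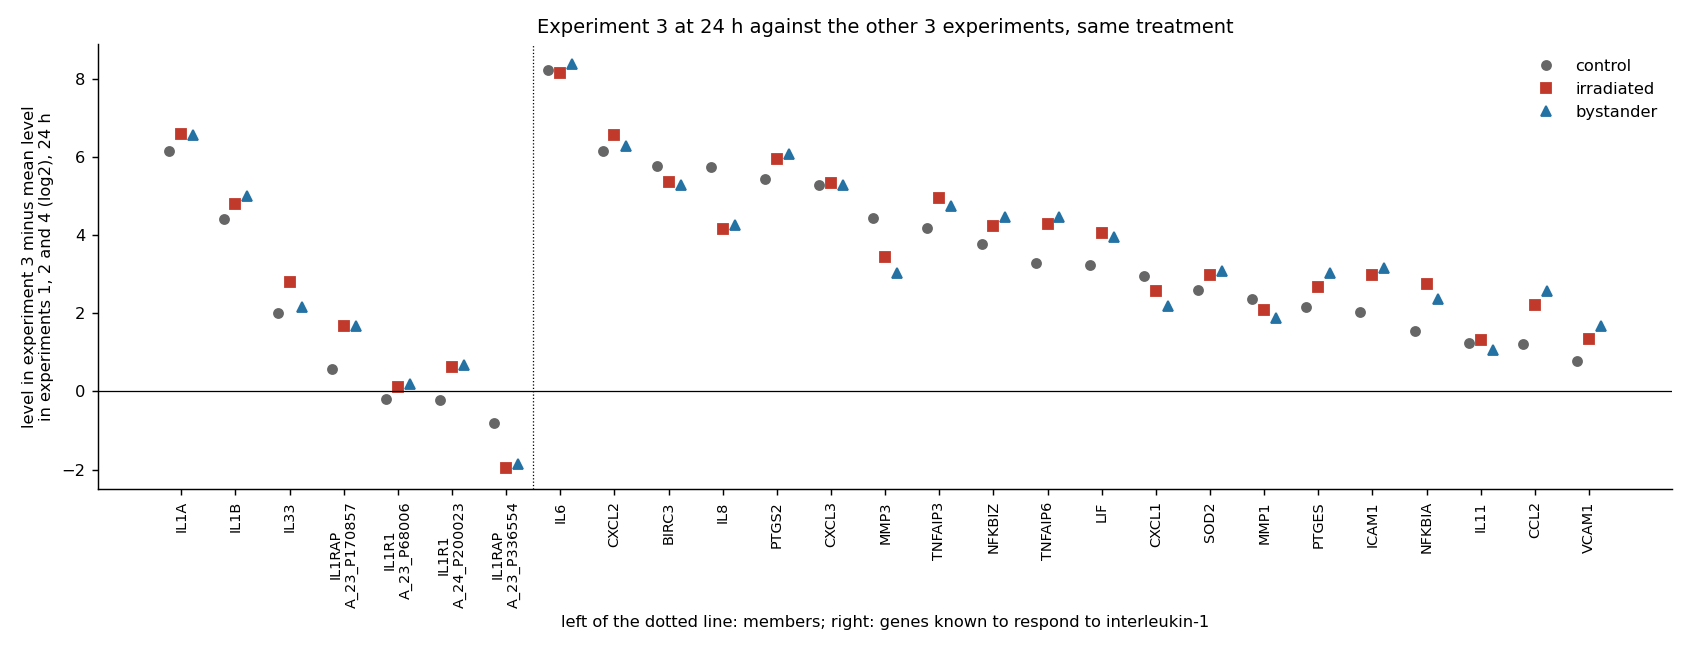
Level in experiment 3 minus the mean level of experiments 1, 2 and 4 at 24 hours, on the log2 scale, within control (grey), irradiated (red) and bystander (blue) cells. Family probes stand left of the dotted line and the 20 interleukin-1 responsive genes right of it, both in order of the control difference. IL1A, IL1B and most responsive genes lie far above 0 in each treatment, and the IL1R1 probes lie between -0.23 and 0.68.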

How the data were processed

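The 72 scanner outputs deposited for 1-colour Agilent arrays hold the authors' background-corrected intensity of each of 43376 spots, made with Agilent Feature Extraction 9.1.3.1, without normalization between arrays. The authors' deposited table of log2 values served as an alternative. Non-uniform spots were set to missing and spots of a probe averaged. Arrays were scaled to a common 75th percentile of 10 and values floored at 3, both on the log2 scale. Probes not well above background or non-uniform on more than 10% of arrays were left out, as in the study's methods. limma 3.58.1 in R 4.3.3 fitted treatment and experiment at each time (6 residual degrees of freedom, intensity trend), after the scripts were tested on simulated data, and probes outside the filter were fitted among all probes. The experiment was a block because the methods state that its dishes shared a pool of cells and use paired ratios, and same-numbered arrays correlated above 0.1 in 68 of 72 pairs. Named were every member probe, up to 4 called genes of each list and the 5 genes most like each passing member probe, and further list genes were named after their values were seen. The members and lists were chosen with earlier results of these data known. Gene names are those of the array annotation, in which 6137 probes differ between the 2 deposited versions. The alternatives were no scaling, quantile normalization, normexp background, the authors' table, no filter, no block, the slide as a further block, 1 fit over all arrays, and leaving out each experiment. Some genes among those most like a member are not reported here.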

Additional observations from a re-analysis of the deposited data

Results flagged for a closer look

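In groups of 4 arrays, 12 of the 126 groups of passing member probes (9.52%) held a highest or lowest array far from the other 3 by Dixon's criterion, and chance alone flags about 1 group in 20. The same share over all passing probes is not given, and arrays of experiments 1 and 2 lay closer together than other pairs over all probes. The values are levels on the log2 scale. Experiment 4 stood apart for IL1A in irradiated cells at 0.5 hours (8.47) and in bystander cells at 6 hours (5.18). It also did for the IL1R1 probe A_24_P200023 in irradiated cells at 1 hour (9.46) and in bystander cells at 24 hours (8.29), and for the IL1RAP probe A_23_P170857 at 0.5 hours in irradiated (7.42) and bystander cells (7.43). Experiment 3 stood apart for IL1A in irradiated cells at 24 hours (12.79), for IL1B in controls at 6 hours (10.73) and for IL33 in bystander cells at 2 hours (7.14). It did likewise for A_23_P170857 in irradiated cells at 1 hour (7.73) and for the IL1RAP probe A_23_P336554 in irradiated cells at 2 hours (5.36) and in controls at 4 hours (7.81). All 12 values belonged to arrays of experiments 3 and 4, and whether these experiments differ in handling was not tested.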

How the results depend on the processing

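Of the 19 calls made among the 84 ratios of passing member probes, 18 held without scaling, with quantile normalization, with normexp background, in the authors' table and in 1 fit over 72 arrays. With the slide as a further block 10 held, 8 when dim probes were kept, and 2 without the block, both of IL33 at 4 h. Without experiment 1, 2, 3 or 4, 5, 6, 14 and 16 held. Every called ratio kept its sign in all 12 settings, but sizes moved. At 4 h IL1A ran from 0.99 to 2.11 after irradiation and from 0.97 to 2.43 in bystander cells. IL33 ran from 1.68 to 2.72 and from 1.42 to 2.81 at that time. At 0.5 h IL33 ran from 1.28 to 2.50 after irradiation and from 1.41 to 2.58 in bystander cells. Over the array the 12 comparisons gave 9284 calls, and 15849 without scaling, 2713 without the filter, 117 without the replicate block, 3918 with the slide, 16557 in 1 fit and 1254 to 9435 when an experiment was left out.

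After irradiation the member calls at 0.5 h (3) became 2 without the filter, 0 without the replicate block, 2 with the slide and 0 to 3 with an experiment left out. At 2 h (1) they were 2 without scaling, 3 in the authors' table, 0 without the filter, 0 without the replicate block, 0 with the slide, 0 in 1 fit and 0 to 3 with an experiment left out. At 4 h (3) they were 1 without the filter, 1 without the replicate block, 2 with the slide and 1 to 3 with an experiment left out. At 6 h (4) they were 2 without the filter, 0 without the replicate block, 3 with the slide, 5 without scaling or in 1 fit and 1 to 5 with an experiment left out. Without scaling the array then gave 284 higher and 4158 lower calls, against 1401 and 1296. At 24 h (0) they were 2 in 1 fit. That fit gave 16557 calls over the array against 9284, and its share of all probes at each time is not given. Of all probes 1.3%, 0.127%, 2.41% and 9.21% were called with the slide at 0.5, 2, 4 and 6 h. Without the filter the shares were 1.08%, 2.25%, 0.115% and 1.07%. With an experiment left out they were 0% to 6.25%, 0.0951% to 19.4%, 0.0911% to 1.58% and 0.824% to 7.45%. At 2 h array calls were 68 higher and 6854 lower without scaling and 630 and 2382 in the authors' table, against 889 and 667. Without the block the share at each time is not given.

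In bystander cells the member calls at 0.5 h (3) became 2 without the filter, 0 without the replicate block, 2 with the slide and 0 to 3 with an experiment left out. At 2 h (0) they were 1 with normexp, where the array gave 212 higher and 210 lower calls against 50 and 8, and 0 to 3 with an experiment left out. At 4 h (3) they were 4 without scaling, 1 without the filter, without the replicate block or with the slide, and 1 to 3 with an experiment left out. Without scaling the array then gave 3707 higher and 22 lower calls, against 134 and 23. At 6 h (2) they were 1 without scaling, with quantile normalization or in the authors' table, 0 without the filter, without the replicate block or with the slide, 3 in 1 fit and 0 to 2 with an experiment left out. At 24 h (0) they were 1 in 1 fit, again without the share of all probes in that fit. Of all probes 0.685%, 0.0753% and 0% were called with the slide at 0.5, 4 and 6 h. Without the filter the shares were 1.67%, 0.061% and 0%. With an experiment left out they were 0% to 4.67%, 0.0396% to 0.424% and 0% to 1.13%, and at 2 h 0% to 12%. At 6 h array calls were 40 higher and 14 lower without scaling and 49 and 12 with quantile normalization, against 54 and 16. In the authors' table they were 58 and 15. The tests of differences between times gave 0, and 0 to 1 with an experiment left out. The filter changes the number of probes tested, and the other causes were not tested.

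Ratios that changed sign were none of them called. For the IL1R1 probe A_23_P68006, without scaling the ratio was 0.13 at 1 h after irradiation and -0.07, 0.04 and 0.39 at 0.5, 1 and 4 h in bystander cells. It was -0.01 with normexp at 0.5 h and 0.05 in the authors' table at 4 h in bystander cells, and with the slide -0.01 after irradiation and -0.07 in bystander cells at 0.5 h. With an experiment left out it ran from -0.03 to 0.26 at 0.5 h, -0.14 to 0.01 at 1 h and -0.14 to 0.08 at 4 h after irradiation, and from -0.15 to 0.08 at 4 h and -0.63 to 0.01 at 24 h in bystander cells. For A_24_P200023 in bystander cells it was -0.08 at 0.5 h and 0.20 at 4 h without scaling, -0.04 at 0.5 h with normexp, and -0.20 to 0.32 at 0.5 h with an experiment left out. For the IL1RAP probe A_23_P170857 it was -0.06 at 2 h after irradiation without scaling, and with an experiment left out -0.03 to 0.41 after irradiation and -0.10 to 0.35 in bystander cells at 0.5 h. For A_23_P336554 it was -0.31 without scaling and -0.09 with quantile normalization at 24 h after irradiation, -0.07 at 2 h and 0.43 at 4 h in bystander cells without scaling and 0.09 at 4 h in the authors' table. With an experiment left out it ran from -0.16 to 0.38 at 24 h and -0.41 to 0.56 at 4 h after irradiation, and in bystander cells from -0.04 to 0.48, -0.06 to 0.39, -0.17 to 0.42, -0.36 to 0.49 and -0.01 to 0.43 at 0.5, 1, 2, 4 and 24 h. For IL1A at 1 h after irradiation it ran from -0.29 to 0.76.

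Scaling matters most for the direction of whole-array calls. Without it the median over all probes moved to -0.38, -0.34 and -0.38 at 2, 6 and 24 h after irradiation and to 0.42 at 4 h, -0.26 at 2 h and -0.20 at 6 h in bystander cells. Calls were then 68 higher and 6854 lower at 2 h after irradiation (889 and 667 with scaling), 284 and 4158 at 6 h (1401 and 1296), 4 and 57 at 24 h (27 and 15), 91 and 162 at 0.5 h in bystander cells (1108 and 669) and 3707 and 22 at 4 h (134 and 23). The balance after irradiation also turned in the authors' table, to 630 higher and 2382 lower at 2 h and 903 and 1588 at 6 h. With quantile normalization it was 853 and 913 at 2 h and 1301 and 1416 at 6 h. Signal over background limits IL1RN and IL1RL1, for which most arrays give a bound only, and 4 experiments, 2 of them alike, limit the rest.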
